A study of Mus musculus with 31 samples.

Results

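The vascular endothelial genes described here are a set of 10 genes, Pecam1, Cdh5, Kdr, Flt1, Tek, Vwf, Vegfa, Angpt2, Esam and Apln, out of 22609 genes listed in each count table. Their rows were read in all 31 libraries of masseter muscle (MM), 1 library per mouse, and the rule that lists them uses no measured value. All mice were adult male C57BL/6J mice that received an injection into the left MM under anaesthesia. The CFA experiment holds 3 mice at 1d and 3 at 5d after complete Freund's adjuvant, an oil emulsion with killed mycobacteria mixed with PBS, and 3 vehicle mice. The Col experiment holds 4 mice in each of the 0.2U groups titled 1C and RPC, 4, 3 and 4 mice titled 2d, 6d and 12d after 10U of collagenase type 2 (Col), a crude enzyme that digests collagen, and 3 vehicle mice. Vehicle was PBS in both experiments. The titles give no day for the 0.2U groups or for the vehicle mice, and the study's text gives other days for the first and last 10U groups, so groups are called here by their titles. The tissue was whole muscle with deep, middle and superficial parts, and blood was not stated to be flushed out before RNA was taken.

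Endothelial cells line every blood vessel and are held together at their junctions by proteins such as VE-cadherin. Vascular endothelial growth factor (VEGF) acts on receptors of these cells to drive growth and leakiness of vessels, and the angiopoietin and Tie receptor system sets whether vessels stay quiet or are remodelled. In skeletal muscle a dense capillary bed runs along the myofibres, which themselves release VEGF. In whole muscle, fewer endothelial cells and less RNA of these genes per cell cannot be told apart.

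The proximal promoters of 4 of the genes are shown because Tek and Flt1 were called lower at 10U Col 6d, because Kdr and Apln are the receptor and the ligand with an adjusted p nearest to the threshold at 2d, and because endothelial promoters are known for sites of ETS family transcription factors. The 250 bases before the start of each gene were taken from RefSeq on build GRCm38.p6, which held promoters for 5 of the 10 genes. Capitals mark each match to the ETS type motifs CCGGAA or CAGGAA on either strand, so that a match on the other strand reads as the reverse complement.

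Tek, chr4:94739039-94739288, plus strand: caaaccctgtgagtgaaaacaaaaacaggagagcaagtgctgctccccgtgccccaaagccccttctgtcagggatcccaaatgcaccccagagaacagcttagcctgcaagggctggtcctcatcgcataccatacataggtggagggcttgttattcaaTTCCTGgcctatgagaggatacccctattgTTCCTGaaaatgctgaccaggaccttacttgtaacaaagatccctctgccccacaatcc

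Kdr, chr5:75978456-75978705, minus strand: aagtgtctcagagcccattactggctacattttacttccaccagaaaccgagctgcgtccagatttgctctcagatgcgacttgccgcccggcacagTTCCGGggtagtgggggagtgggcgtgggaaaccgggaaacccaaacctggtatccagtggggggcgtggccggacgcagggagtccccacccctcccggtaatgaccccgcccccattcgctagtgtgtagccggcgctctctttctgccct

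Flt1, chr5:147726012-147726261, minus strand: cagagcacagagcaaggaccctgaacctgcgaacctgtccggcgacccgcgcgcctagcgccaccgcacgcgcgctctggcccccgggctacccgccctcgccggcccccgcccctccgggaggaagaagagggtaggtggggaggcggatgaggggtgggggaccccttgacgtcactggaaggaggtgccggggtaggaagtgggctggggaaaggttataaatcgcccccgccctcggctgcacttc

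Apln, chrX:48034854-48035103, minus strand: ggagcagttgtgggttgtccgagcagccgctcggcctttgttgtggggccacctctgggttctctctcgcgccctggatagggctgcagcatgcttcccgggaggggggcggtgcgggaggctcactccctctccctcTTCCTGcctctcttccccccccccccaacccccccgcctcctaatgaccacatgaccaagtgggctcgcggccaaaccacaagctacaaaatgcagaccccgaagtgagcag

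Tek held 2 matches to CAGGAA, Apln held 1 match to CAGGAA, Kdr held 1 match to CCGGAA, and Flt1 held neither motif in this window. Other sequences with the GGAA that both motifs share were not marked, and the Flt1 window holds some of them. Of 32851 RefSeq promoters, 35.1% held either motif in the same window, 25.7% held CAGGAA and 12% held CCGGAA. These matches describe the letters and not sites that a factor was seen to bind.

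Every one of the 10 genes was detected in every library. The lowest count of any of them in any library was 62, for Apln. Depth was 14843778 to 29076671 reads on genes. Values per mouse are CPM, counts divided by library size after scaling by TMM, which corrects library sizes for genes that take up unequal shares of the reads, and the TMM factors ran from 0.63 to 1.37. The share of reads that could belong to more than 1 gene was 0.331% to 0.399% in the 11 libraries of 10U Col and 0.0757% to 0.138% in the other 20 libraries, a difference that cannot be told apart from 10U Col itself because their vehicle libraries are among the 20. No exon of the 10 genes shares bases with an exon of another gene in GENCODE vM1, an annotation of the files' build mm9. Mouse 4 of the 10U Col 2d group stood apart from mice 1 to 3 and lay near the vehicle mice in several of the genes. Results of that group are given with and without it. It was singled out after these values were seen and stayed under the limit of the outlier test given below. A smaller p without it is therefore no independent support. Its library had 27573542 reads on genes against 15759560 to 16753167 in mice 1 to 3. Reads aligned to more than 1 place were 39.5% in it and 44.9% to 46.5% in mice 1 to 3. A score of 8 salivary gland genes, the mean of log2 CPM, ran from -1.86 to 10.93 over the libraries, and its values are given beside the results.

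In the 6 vehicle mice, levels were compared per kilobase of exons (RPKM). Cdh5, which encodes VE-cadherin, had the highest median at 76.0 RPKM (range 63.0 to 110). Pecam1, the junction protein CD31, followed at 52.3 RPKM, Vegfa at 43.6 RPKM, Esam, another junction protein, at 30.9 RPKM, Kdr, the main signalling VEGF receptor, at 24.0 RPKM, Tek, the angiopoietin receptor Tie2, at 17.8 RPKM, and Flt1, a VEGF receptor that also acts as a decoy, at 12.7 RPKM. Each of these 7 genes overlapped its neighbour in that order over the 6 mice. Vwf, the clotting glycoprotein that endothelial cells store and that platelets carry too, was lower with 5.78 RPKM (4.44 to 8.93), and Angpt2, an angiopoietin that counters Tie2 signalling, was lower again with 2.31 RPKM (2.07 to 2.57). Apln, which encodes the peptide apelin made by growing vessels, had 1.71 RPKM (0.859 to 2.67) and overlapped Angpt2. The 2 vehicle groups were compared as well, and edgeR's quasi-likelihood test called none of the 10 genes between them, where 0.0426% of 14070 genes were called. DESeq2 also called 0 of the 10, and 0 had an unadjusted p under 0.05.

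Over all 31 libraries Apln varied 54.2-fold from the lowest to the highest mouse, Angpt2 8.1-fold, Vwf 6.84-fold and Vegfa 5.87-fold. Flt1 varied 4.78-fold, and Tek, Esam, Cdh5, Kdr and Pecam1 between 2.32-fold and 3.46-fold. The highest mouse was in the 10U Col 2d group for each of the 3 ligands, Vegfa, Angpt2 and Apln.

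**Figure D1:**
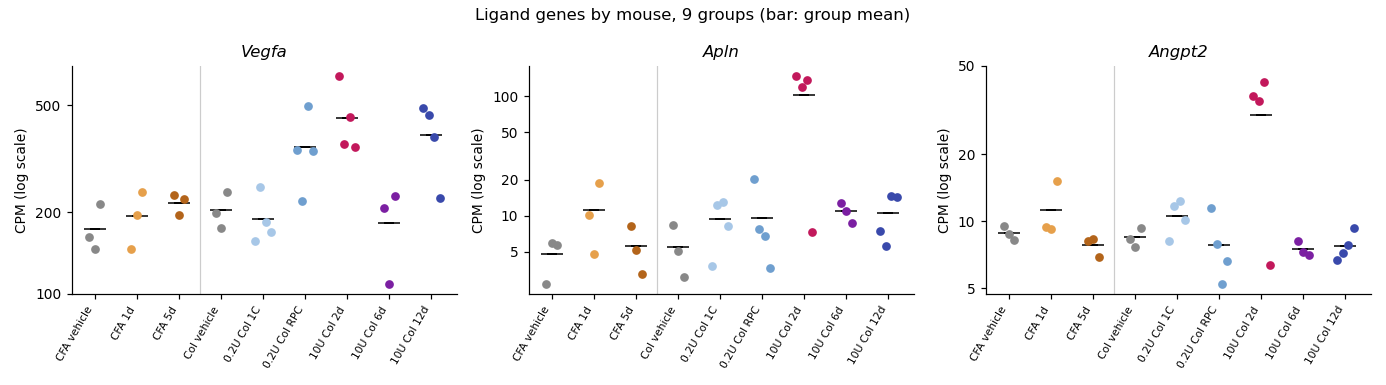
Level of the ligand genes Vegfa, Apln and Angpt2 in CPM on a log scale (vertical axis) in the 9 groups (horizontal axis). Points are mice and bars are group means, and the grey line divides the CFA from the Col experiment. Mice 1 to 3 of 10U Col 2d stand between 120 and 147 CPM for Apln and between 34.6 and 42.2 CPM for Angpt2, while mouse 4 lies within the range of the Col vehicle mice for Apln and below them for Angpt2.

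The first question was how the ligands stood after 10U Col. Apln measured 147, 120, 137 and 7.30 CPM in mice 1 to 4 of 10U Col 2d, against 8.41, 5.06 and 3.09 CPM in the Col vehicle mice. Mice 1 to 3 were far above every vehicle mouse, and mouse 4 lay within the vehicle range. The log2 fold change over all 4 mice was 4.17 ± 0.96 (SE, n = 4 and 3), with an adjusted p of 0.054 in edgeR's quasi-likelihood test, so Apln did not pass the threshold of 0.05. Without mouse 4 it was 4.56 ± 0.37 with an adjusted p of 0.000612 by the same test. At 6d the mice had 12.8, 11.1 and 8.75 CPM, all above the vehicle mice, with a log2 fold change of 0.95 ± 0.37 and an edgeR adjusted p of 0.0876. At 12d the values were 7.41, 5.63, 14.7 and 14.5 CPM and overlapped the vehicle mice.

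Angpt2 gave the same split among the mice. It measured 36.6, 34.6, 42.2 and 6.32 CPM in mice 1 to 4 of 10U Col 2d and 8.32, 7.65 and 9.36 CPM in the Col vehicle mice. Mouse 4 was below all 3 vehicle mice and the other mice were far above them. The log2 fold change was 1.78 ± 0.57 with an edgeR adjusted p of 0.0836, and without mouse 4 it was 2.11 ± 0.18 with an edgeR adjusted p of 0.000721. At 6d (7.05 to 8.12 CPM) and at 12d (6.69 to 9.32 CPM) Angpt2 overlapped the vehicle mice.

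Vegfa, the VEGF that signals through Kdr, measured 639, 358, 452 and 349 CPM at 2d, against 198, 176 and 237 CPM in the vehicle mice. All 4 mice lay above the vehicle mice, mouse 4 included. The log2 fold change was 1.10 ± 0.29, and its edgeR adjusted p of 0.0633 missed the threshold, while without mouse 4 it was 1.19 ± 0.26 with an edgeR adjusted p of 0.0123. At 6d Vegfa had 208, 109 and 230 CPM, within or below the vehicle range. At 12d it had 488, 460, 382 and 226 CPM, with 3 of the 4 mice above every vehicle mouse, and the log2 fold change of 0.95 ± 0.29 had an edgeR adjusted p of 0.173.

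**Figure D2:**
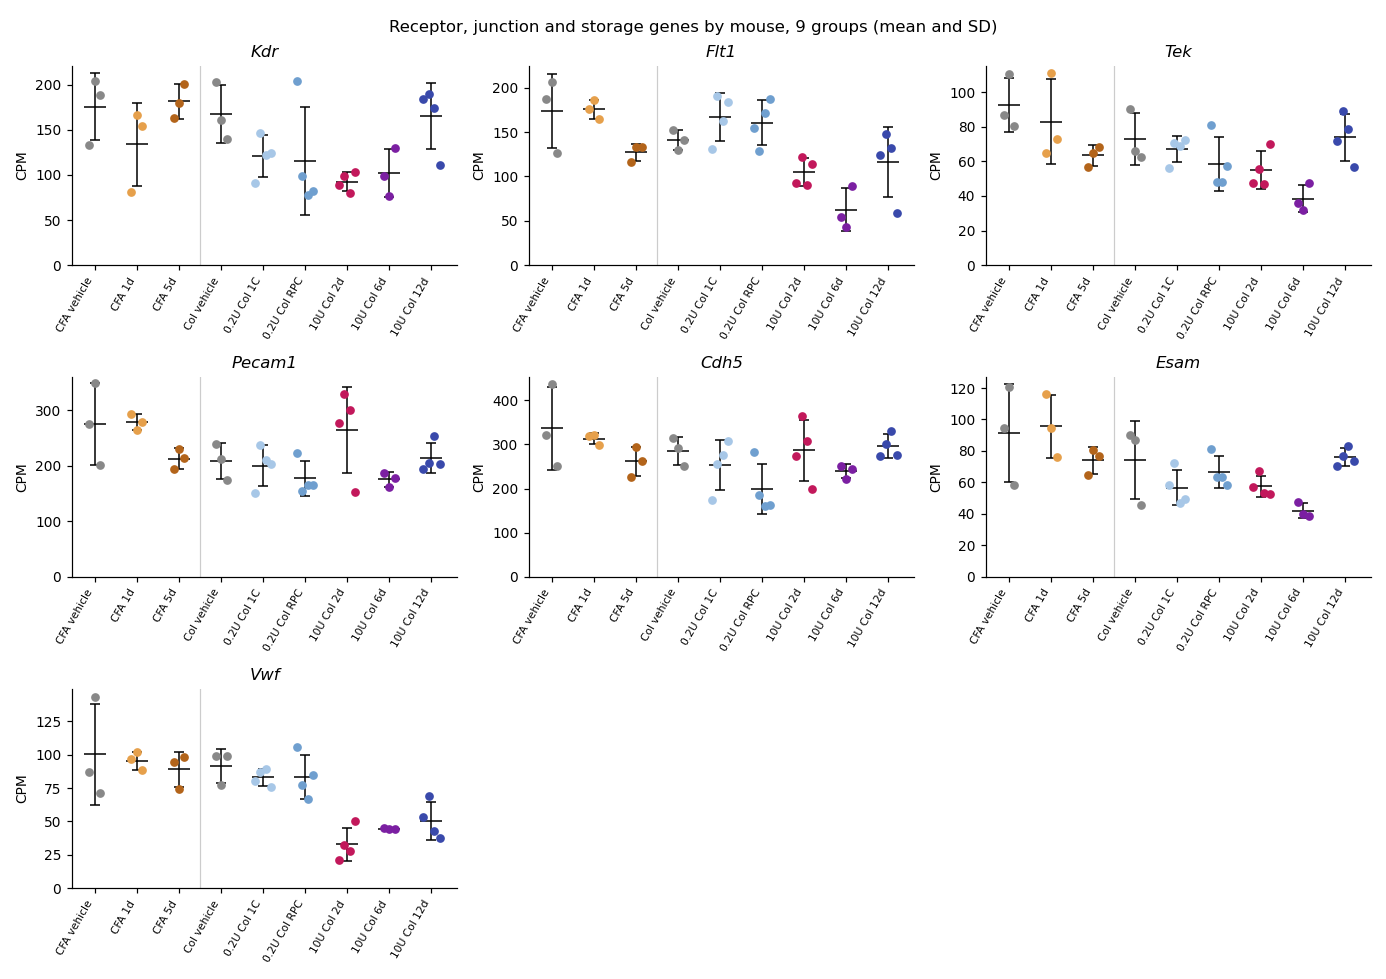
Level of 7 receptor, junction and storage genes in CPM (vertical axes start at 0) in the 9 groups (horizontal axis). Points are mice, bars are group means and whiskers are SD. Vwf lies lower in all 3 groups of 10U Col than in the Col vehicle mice, and Flt1, Tek and Esam are lowest at 6d.

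Vwf was the 1 member of 10 called at 10U Col 2d, and it was lower. It measured 21.0, 32.5, 27.8 and 50.1 CPM against 99.0, 77.0 and 99.0 CPM in the vehicle mice, without overlap. The log2 fold change was -1.52 ± 0.30 with an edgeR adjusted p of 0.0483, where 2.22% of the 14373 genes tested were called. Leaving out any 1 of mice 1 to 3 of this group or any 1 of the 3 vehicle mice ended that call, and without mouse 4 the value was -1.81 ± 0.21 with an edgeR adjusted p of 0.00162. With library totals in place of TMM Vwf was not called, while the median of all genes moved to 0.38. A score of 7 platelet and megakaryocyte genes was 0.82 to 2.31 at 2d against -1.39, 1.64 and 3.23 in vehicle. The part of that score in the Vwf result was not tested. DESeq2 called 6 of the 10 genes, Angpt2, Apln and Vegfa higher and Flt1, Kdr and Vwf lower, where it called 23.2% of all genes. Without mouse 4, edgeR called 7 of the 10 genes, where 36.3% of 14160 genes were called, namely Apln, Angpt2 and Vegfa higher and Vwf, Kdr, Tek and Flt1 lower.

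The receptors at 10U Col 2d did not follow the ligands. Kdr measured 88.7, 98.6, 79.9 and 103 CPM against 203, 161 and 139 CPM in the vehicle mice, so every mouse, mouse 4 included, was below every vehicle mouse. Its log2 fold change was -0.90 ± 0.19 with an edgeR adjusted p of 0.0512, and -0.96 ± 0.18 with an edgeR adjusted p of 0.00691 without mouse 4. Flt1 had 92.8, 122, 90.4 and 114 CPM against 152, 130 and 141 CPM, again without overlap, with a log2 fold change of -0.47 ± 0.18 and an edgeR adjusted p of 0.116. Tek had 47.3, 55.5, 46.9 and 70.0 CPM against 90.1, 65.9 and 62.7 CPM and overlapped the vehicle mice through mouse 4. In all, 4 of the 10 genes were free of overlap, Vegfa above and Kdr, Flt1 and Vwf below, where 24.2% of all genes tested did not overlap.

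The junction genes were split at 2d. Pecam1 had 278, 329, 300 and 152 CPM against 239, 212 and 173 CPM in the vehicle mice, with mice 1 to 3 above and mouse 4 below all of them, and its log2 fold change of 0.30 ± 0.29 had an edgeR adjusted p of 0.473. Cdh5 had 274, 366, 309 and 199 CPM against 315, 291 and 252 CPM, and Esam had 56.8, 67.1, 53.2 and 52.8 CPM against 90.3, 86.9 and 45.6 CPM, both overlapping. Beside these values, the vehicle mice had 6.43 to 6.62 and the 2d mice 5.07 to 6.04 for a score of 10 pericyte and smooth muscle genes. For a score of 8 myofibre genes vehicle had 12.95 to 13.55 and 2d had 11.15 to 12.56, and for one of 6 leukocyte genes vehicle had 1.85 to 4.33 and 2d had 4.55 to 6.14. In each of these 3 scores mouse 4 was the mouse of its group nearest to vehicle, and their part in the results was not tested.

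At 10U Col 6d, 4 of the 10 genes fell, Vwf, Flt1, Tek and Esam, and none rose, where 27.3% of 14281 genes were called in either direction and 13.3% were called lower. Over the 10 genes the median log2 fold change was -0.51, beside 0.01 over all genes tested. Vwf had 44.8, 44.5 and 44.6 CPM, nearly equal in the 3 mice and below every vehicle mouse, and fell by 1.06 ± 0.17 on the log2 scale with an edgeR adjusted p of 0.00736. Flt1 had 54.4, 43.3 and 89.7 CPM, also below every vehicle mouse, with a log2 fold change of -1.20 ± 0.28 and an edgeR adjusted p of 0.0223. Tek had 36.1, 32.1 and 47.4 CPM without overlap and a log2 fold change of -0.94 ± 0.22 with an edgeR adjusted p of 0.0222. Esam had 47.8, 39.7 and 38.6 CPM, which overlapped the lowest vehicle mouse at 45.6 CPM, and its log2 fold change was -0.84 ± 0.26 with an edgeR adjusted p of 0.0475.

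The other genes at 6d did not pass the test. Kdr had 98.9, 76.9 and 130 CPM, below all 3 vehicle mice, with a log2 fold change of -0.73 ± 0.25 and an edgeR adjusted p of 0.0624. Pecam1 (161 to 187 CPM) and Cdh5 (221 to 252 CPM) differed from vehicle by -0.27 ± 0.19 and -0.28 ± 0.18 on the log2 scale, with edgeR adjusted p of 0.3 and 0.278. Of the 10 genes 5 were free of overlap between 6d and vehicle, where 47.2% of all genes tested did not overlap.

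The calls at 6d rest on single mice and on the scaling to different degrees. Vwf stayed called when any 1 of the 6 mice was left out. Flt1 and Tek were lost without mouse 1 or mouse 2 of the 6d group or without vehicle mouse 1, and Esam stayed called only without vehicle mouse 3. With library totals in place of TMM the median log2 fold change of all genes moved to 0.54, none of the 4 calls remained although each stayed negative (-0.27 to -0.69), and Apln was called higher, where 34.6% of all genes were called. The salivary gland score was -1.86 to -1.34 at 6d and -0.04, 10.13 and 8.31 in the vehicle mice, and in a fit shared by all 31 libraries with that score as covariate Esam, Flt1, Kdr, Tek and Vwf were called, where 23.2% of all genes were called. The score of 7 platelet and megakaryocyte genes, from cells that also hold Vwf, was -0.90 to -0.34 at 6d against -1.39, 1.64 and 3.23 in vehicle, and its part in the Vwf result was not tested. The leukocyte score was 5.31 to 6.33 at 6d, above all 3 vehicle mice, and the myofibre score was 11.67 to 12.52, below them. The pericyte and smooth muscle score was 6.04 to 6.20 at 6d, below the 6.43 to 6.62 of the vehicle mice. The score of 6 erythroid genes was -2.64 to -2.29 at 6d, below the -1.97 to -0.12 of the vehicle mice, and both erythroid genes that could be tested were called lower. The part of these scores in the results was not tested.

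At 10U Col 12d edgeR called none of the 10 genes, where 1.23% of 14176 genes were called, 2 genes had an unadjusted p under 0.05, as did 17.4% of all genes, and DESeq2 called 2, Vegfa higher and Vwf lower, where it called 6.39% of all genes. Vwf had 53.6, 69.4, 42.5 and 37.2 CPM and was still below every vehicle mouse, with a log2 fold change of -0.83 ± 0.23 and an edgeR adjusted p of 0.143. It was the 1 gene of the 10 without overlap, where 17% of all genes tested did not overlap. The platelet and megakaryocyte score was -0.85 to 0.47 at 12d against -1.39, 1.64 and 3.23 in vehicle. The pericyte and smooth muscle score was 5.96 to 6.51 at 12d against 6.43 to 6.62 in vehicle. The part of these scores in the Vwf result was not tested. Tek (56.6 to 88.9 CPM), Esam (70.1 to 83.3 CPM) and Kdr (111 to 190 CPM) overlapped the vehicle mice, with log2 differences from vehicle of 0.05, 0.07 and 0.01. Mouse 4 of 12d stood apart from mice 1 to 3 in some genes. Its Kdr was 111 CPM against 174 to 190 CPM and its Flt1 58.4 CPM against 125 to 148 CPM. In Esam, Pecam1 and Cdh5 it lay within the range of mice 1 to 3. Its leukocyte score was 5.16 against 2.47 to 3.19, and its myofibre score 12.18 against 12.96 to 13.19. Without it edgeR called Vegfa at 12d. It was singled out after these values were seen, so that call is no independent support.

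**Figure D3:**
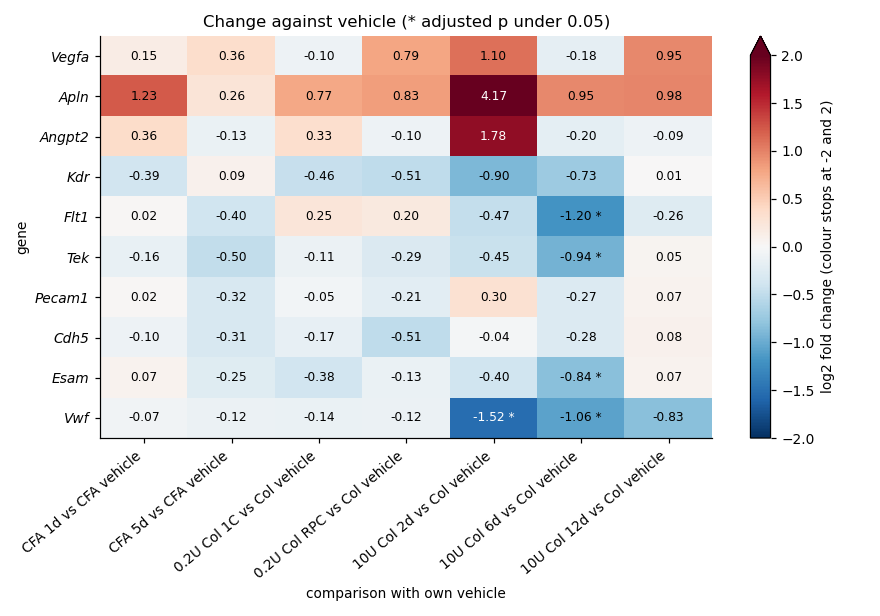
Log2 fold change of the 10 genes (rows) in each treated group against its own vehicle group (columns), with the value printed in each cell and a star where edgeR's adjusted p was under 0.05. The colour scale stops at -2 and 2. Stars stand for Vwf at 10U Col 2d and for Vwf, Flt1, Tek and Esam at 10U Col 6d, and Apln at 10U Col 2d has the highest value without a star.

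Comparing the 10U groups with each other asked how the genes moved over time. From 6d to 12d, 2 of the 10 genes rose, Esam by 0.88 ± 0.13 and Tek by 0.96 ± 0.20 on the log2 scale with edgeR adjusted p of 0.00936 and 0.0189, where 26.4% of 14344 genes were called and 13.4% were called higher. Neither gene overlapped between the groups. Of the 10 genes 4 were free of overlap, all higher at 12d. Of the 14344 genes tested, 2526 were free of overlap and higher and 2683 free of overlap and lower. Markers of other cells moved between the same groups. Of 6 leukocyte genes 2 were called lower at 12d (median log2 difference -1.74), and of 10 pericyte and smooth muscle genes 3 higher and 1 lower. Of 5 lymphatic genes tested 3 were called higher, and of 5 bone genes 3 higher. Of 2 erythroid genes tested 2 were called higher, and of 2 salivary gland genes tested 2 higher. The part of these markers in the result was not tested. The same 3 mice at 6d enter this comparison and the one with vehicle, so their low values count in both. Esam was lost without mouse 2 of the 6d group, and Tek stayed called only without mouse 3 of the 6d group or mouse 4 of the 12d group. From 2d to 6d edgeR called none of the 10 genes, where 8.73% of 14513 genes were called, 6 genes had an unadjusted p under 0.05, as did 26.6% of all genes, and DESeq2 called 4, where it called 18.7% of all genes. The log2 differences were -3.22 ± 0.87 for Apln, -1.97 ± 0.56 for Angpt2 and -1.28 ± 0.34 for Vegfa, with edgeR adjusted p of 0.0592, 0.0697 and 0.0582. Without mouse 4 of the 2d group, Angpt2, Apln, Esam, Pecam1 and Vegfa were called lower and Vwf higher at 6d, where 28.8% of 14234 genes were called.

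After CFA edgeR called none of the 10 genes. At 1d 0% of 13944 genes were called, 0 of the 10 genes had an unadjusted p under 0.05 and DESeq2 called 0 of them. Apln had the widest values, 10.2, 4.80 and 18.7 CPM against 2.71, 5.97 and 5.74 CPM in the CFA vehicle mice, with overlap and a log2 fold change of 1.23 ± 0.54 (edgeR adjusted p = 0.924). At 1d 0 of the 10 genes were free of overlap, where 6.18% of all genes tested were. At 5d 1.11% of 14026 genes were called, 1 of the 10 genes had an unadjusted p under 0.05, as did 14% of all genes, and DESeq2 called 0. That gene was Tek, with 56.9, 65.1 and 68.3 CPM against 87.0, 111 and 80.7 CPM, below every vehicle mouse, and a log2 fold change of -0.50 ± 0.16 (edgeR adjusted p = 0.205). It was the 1 gene of the 10 without overlap, where 19.7% of all genes tested did not overlap. Flt1, at -0.40 ± 0.20, was called only when vehicle mouse 3 was left out, at -0.55. The salivary gland score was 9.19 to 10.21 at 5d and -0.38, -0.07 and 7.04 in the CFA vehicle mice.

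Between 1d and 5d of CFA edgeR called none of the 10 genes, where 5.84% of 14046 genes were called, 1 gene had an unadjusted p under 0.05, as did 19.7% of all genes, and DESeq2 called 0. With library totals in place of TMM, 5 of the 10 genes, Cdh5, Esam, Flt1, Pecam1 and Tek, were called lower at 5d, where 27.5% of all genes were called under that scaling and their median moved to -0.46. Under TMM the log2 differences of these 5 genes lay between -0.22 and -0.43.

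After 0.2U Col edgeR called none of the 10 genes in either group, and DESeq2 called 0 in both. In the group titled 1C 0% of 14493 genes were called and 0 of the 10 genes had an unadjusted p under 0.05. Kdr had 90.7, 147, 122 and 125 CPM against 203, 161 and 139 CPM, with overlap through 1 mouse, and a log2 fold change of -0.46 ± 0.21 (edgeR adjusted p = 0.410). In the group titled RPC 0% of 14269 genes were called, and Vegfa alone of the 10 had an unadjusted p under 0.05, as did 13.5% of all genes. Vegfa had 342, 220, 496 and 339 CPM against 198, 176 and 237 CPM, with 3 of 4 mice above every vehicle mouse, and a log2 fold change of 0.79 ± 0.28 (edgeR adjusted p = 0.317). A score of 7 fat genes was 5.46 to 5.76 in this group and 2.00 to 4.08 in the vehicle mice. The salivary gland score was 7.51 to 10.93 against -0.04 to 10.13 in vehicle. The part of these scores in the result was not tested. No gene of the 10 was free of overlap in either group, where 10.3% and 12% of all genes tested were.

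Whether the early effects of 10U Col (2d) and CFA (1d), and the later effects (6d and 5d), differed was tested as an interaction over the mice of both experiments. EdgeR called none of the 10 genes in either test, where 0.0946% of 14794 genes and 11.3% of 14892 genes were called, 3 of the 10 genes had an unadjusted p under 0.05 in each test, as did 6.83% and 28.9% of all genes, and DESeq2 called 0. Vwf came nearest in the later test, with a log2 difference of -0.95 ± 0.32 and an edgeR adjusted p of 0.0798. In the early test without mouse 4 of 10U Col 2d, Angpt2 was called, with a log2 difference of 1.75 ± 0.31 and an edgeR adjusted p of 0.040, where 0.708% of all genes were called.

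Ratios of 2 genes within a library do not depend on its scaling, and 4 of them were compared in each treated group with vehicle, 28 tests in all. The exact permutation test (two-sided) cannot go below p = 0.0571 with 4 mice against 3 or below p = 0.1 with 3 against 3, and after Benjamini-Hochberg adjustment over the 28 tests no p was under 0.32. The ratio of Vegfa to Kdr, ligand to receptor, was 2.24 ± 0.52 (SD, n = 4) on the log2 scale at 10U Col 2d and 0.29 ± 0.42 (SD, n = 3) in vehicle. All 4 mice lay above the vehicle mice, mouse 4 included, at an exact p of 0.0571. The same ratio was 1.21 ± 0.17 (SD, n = 4) at 12d, again without overlap, at an exact p of 0.0571. Flt1 to Kdr was 0.41 above vehicle at 2d and 0.51 below it at 6d, each without overlap, at an exact p of 0.0571 and 0.1. It was also 0.70 above vehicle in the 0.2U Col group titled 1C, without overlap, at an exact p of 0.0571. Kdr to Cdh5 was lower than in vehicle by 0.82 at 2d and by 0.48 at 6d on the log2 scale, also without overlap, at the same exact p values. Angpt2 to Tek was -1.17 ± 1.55 (SD, n = 4) at 2d and -3.09 ± 0.35 (SD, n = 3) in vehicle and overlapped through mouse 4. How often ratios of other gene pairs were free of overlap was not counted. Vegfa, Kdr and Flt1 at 2d, and Kdr and Flt1 at 6d, were free of overlap by themselves. The ratios at 2d and 6d are therefore not separate from those results.

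**Figure D4:**
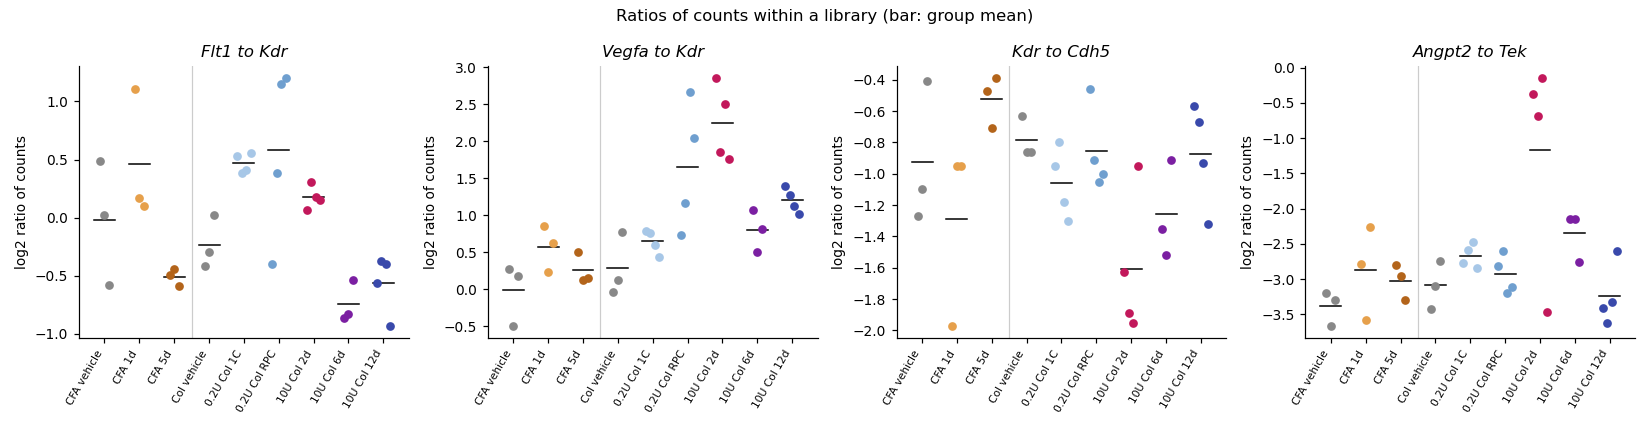
Log2 ratio of counts of 2 genes within each library (vertical axes) in the 9 groups (horizontal axes), with points for mice and bars for group means. Vegfa to Kdr is higher in all 4 mice of 10U Col 2d and of 10U Col 12d than in the Col vehicle mice, and Kdr to Cdh5 is lower in all mice at 2d and 6d.

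Other genes of these pathways were counted in lists. Of 10 VEGF ligands and receptors, 2 fell and 0 rose at 10U Col 6d against vehicle, Flt1 and Vegfb, a VEGF that binds Flt1, where 27.3% of all genes were called. Vegfb had 68.3, 38.5 and 70.9 CPM at 6d and 111, 131 and 99.9 CPM in vehicle, without overlap, and its log2 fold change was -0.96 ± 0.26 with an edgeR adjusted p of 0.0323. Of 2 apelin genes tested, 1 rose at 6d, the receptor Aplnr, with 144, 135 and 107 CPM against 55.2, 38.2 and 19.5 CPM, a log2 fold change of 1.75 ± 0.35 and an edgeR adjusted p of 0.0139. At 2d Aplnr had 104, 111, 86.6 and 26.1 CPM, so mouse 4 again lay in the vehicle range.

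Of 6 genes of the angiopoietin and Tie list, 4 rose and 0 fell from 6d to 12d, where 26.4% of all genes were called, and the median log2 difference of the list was 0.83 beside 0.00 over all genes. Beside Tek these were Ptprb, a phosphatase that restrains Tie2, by 1.02 ± 0.19, Angpt1, the ligand that activates Tie2, by 0.95 ± 0.23, and the receptor Tie1, by 0.67 ± 0.16 on the log2 scale, with edgeR adjusted p of 0.0156, 0.0245 and 0.0235. Ptprb had 110, 107 and 142 CPM at 6d and 238, 274, 257 and 190 CPM at 12d, without overlap.

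Of 24 further genes of endothelial cells in general, 9 rose and 1 fell from 6d to 12d, where 26.4% of all genes were called, and 2 rose and 3 fell at 6d against vehicle, where 27.3% were called. Tie1 is a member of this list too. The 3 with the widest difference from 6d to 12d were Gpihbp1, which holds lipoprotein lipase in capillaries, at 1.08 ± 0.15, Nos3, the endothelial nitric oxide synthase, at 0.82 ± 0.20, and Calcrl, a receptor for adrenomedullin, at 0.73 ± 0.12 on the log2 scale, with edgeR adjusted p of 0.00889, 0.0273 and 0.0123. Gpihbp1 had 25.3, 22.3 and 24.7 CPM at 6d, against 45.7, 53.9, 58.2 and 42.3 CPM at 12d. For this list too the same 3 mice at 6d enter both comparisons. At 6d Gpihbp1 and Nos3 were called lower than in vehicle, by 1.13 ± 0.25 and 0.96 ± 0.19 on the log2 scale. Calcrl was not called there, at 0.38 ± 0.17 (edgeR adjusted p = 0.129). At 12d 2 genes of the list were called against vehicle, both higher, where 1.23% of all genes were called. They were Calcrl at 1.14 ± 0.13 and Sox17 at 1.21 ± 0.19, with edgeR adjusted p of 0.00705 and 0.0263.

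Of 11 genes of sprouting vessels and tip cells, 2 rose and 4 fell at 6d against vehicle, where 27.3% of all genes were called and 13.3% were called lower. Cxcr4, a chemokine receptor that leukocytes carry as well, rose by 1.68 ± 0.37 on the log2 scale, with 39.2, 49.4 and 29.8 CPM against 9.50, 7.52 and 18.8 CPM. The gene listed as 1190002H23Rik, a former symbol of Rgcc, fell by 1.78 ± 0.27, and Esm1, a secreted proteoglycan of tip cells, fell by 1.60 ± 0.50 on the log2 scale. The edgeR adjusted p values of Cxcr4, 1190002H23Rik and Esm1 were 0.0185, 0.00635 and 0.0496.

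Vegfa and Angpt2 are known to respond to low oxygen, and 13 further genes of the hypoxia response were counted for that reason. From 2d to 6d 5 of them fell and 0 rose, where 8.73% of all genes were called, and without mouse 4 of the 2d group 8 fell and 0 rose, where 28.8% were called. Adm, which encodes adrenomedullin, had 37.0, 28.0, 31.1 and 5.88 CPM at 2d, 3.65, 3.05 and 5.27 CPM at 6d and 5.80, 4.92 and 5.37 CPM in vehicle, so that mouse 4 again stood with vehicle. Adm fell by 2.65 ± 0.59, Ankrd37 by 2.62 ± 0.65 and Egln3, an oxygen sensor, by 1.82 ± 0.46 on the log2 scale, with edgeR adjusted p of 0.0373, 0.0478 and 0.0482. Against vehicle at 2d edgeR called 0 of the 13 with all 4 mice, and without mouse 4 there were 7 called higher and 2 lower, where 36.3% of all genes were called. Of 4 genes of activated endothelium, Selp, the P-selectin that platelets also carry, fell from 1d to 5d of CFA by 1.86 ± 0.43 on the log2 scale with an edgeR adjusted p of 0.0481, from 36.0, 11.0 and 31.6 CPM to 6.46, 5.74 and 8.83 CPM. It was the 1 gene of the 4 called there, where 5.84% of all genes were called.

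How the genes varied together was described over the 31 libraries after the mean of each group was taken out, by Pearson's r of log2 CPM and with no test, since the mice share library preparation and scaling. With the mean of Pecam1, Cdh5, Kdr, Tek and Esam, r was 0.50 for Flt1, 0.38 for Vwf, 0.38 for Apln, 0.30 for Angpt2 and 0.105 for Vegfa. Among 13510 genes with a mean of at least 1 CPM, the genes most like that mean were Immt, Ptrf, Naa20, Timm17a and Mrps27, with r from 0.82 to 0.84 and from 0.30 to 0.79 when group means were kept. The genes most like Apln were Mcam, Rgs16 and Nes (r = 0.94, 0.92 and 0.91), those most like Angpt2 were Bcl6b, Anp32b and Pmepa1 (r = 0.88, 0.88 and 0.87), and those most like Vegfa were Zfp639, Trub1 and Gm5105 (r = 0.80, 0.76 and 0.71). With group means kept, r was 0.91, 0.80 and 0.76 for the Apln genes, 0.51, 0.86 and 0.70 for the Angpt2 genes and 0.45, 0.66 and 0.62 for the Vegfa genes. Taking out group means leaves mouse 4 of 10U Col 2d far from mice 1 to 3 of its group. For Apln it had 7.30 CPM against 120 to 147 CPM, and for Angpt2 6.32 CPM against 34.6 to 42.2 CPM. The r values of Apln and Angpt2 therefore rest in part on that 1 library, and r without it was not tested.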

How the data were processed

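RNA of whole MM from 31 mice was measured by RNA-seq, 1 stranded poly(A) library per mouse. The authors aligned the reads with TopHat2 to mm9, counted them per gene symbol with HTSeq and deposited raw counts, 1 table per library. The submitters' processing notes name these tools without versions, and the strand setting of the counting is not given in the sources used here. Lines that name no gene, for reads aligned to more than 1 place (34.6% to 47.9% of all that a table counts) and reads on no gene (3.94% to 12.1%), were left out of totals and tests. Totals on genes were 14843778 to 29076671 counts (median 20834472), and the precision of a gene's value depends on its count in each library.

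The main test was that of edgeR 4.0.16 under R 4.3.3 (TMM, quasi-likelihood test, Benjamini-Hochberg adjustment over all genes tested), fitted on the libraries of each comparison alone, and a gene entered it with 10 counts or more in 3 or more of them. A gene was called at an adjusted p under 0.05. SEs were computed as the size of the log2 fold change over the root of the test's F. CPM per mouse use TMM factors over all 31 libraries, log2 CPM for scores add a prior count of 2, and RPKM use exon lengths of GENCODE vM1. Ratios add 0.5 to each count and were tested by exact permutation in scipy 1.17.1 on Python 3.11.15. The fit was tested on simulated data that held no outlying mouse and as many genes raised as lowered. That test therefore does not bear on results that turn on mouse 4 of 10U Col 2d or on the scaling.

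Samples were grouped by title, and the group titled as control in the Col experiment was taken as its vehicle. The p-values of edgeR and DESeq2 set a difference between groups against the spread between these mice, which is estimated with help from all genes. The exact p of a ratio sets its difference against those of all ways to share out the mice between the groups. All 10 genes are named, and of each list up to 3 genes outside the 10 with the largest change among those called in the comparison with most calls, with the likeness genes as defined in the text. The rule that lists the 10 genes uses no measured value. The 10 genes and the lists were still chosen with earlier results of these data known, so no count over them is independent support. Alternatives were DESeq2 1.42.0, its size factors in edgeR, library totals, no filter, 1 fit shared by 31 libraries, both vehicle groups pooled, a replicate block, each mouse left out (97 fits), the study's criteria of a fold over 2 and over 1 RPKM as well, and a pseudocount of 5 for ratios. The fit with a salivary gland covariate was chosen after seeing the data. So were the tests and list counts printed without mouse 4 of 10U Col 2d. Mice with 1 number are different animals. Deviations from group means of same-numbered mice correlated above 0.1 in every pair for CFA 1d with CFA vehicle (r = 0.164, 0.256 and 0.591) and for the 2 vehicle groups (r = 0.115 to 0.677), which the rule used here takes as pairing, and in the other comparisons they did not.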

Additional observations from a re-analysis of the deposited data

Results flagged for a closer look

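Among groups of 4 mice, 40 sets of values were tested for a mouse far from the others, by the gap to the nearest mouse divided by the range of the group against Dixon's critical value, and 2 passed. Chance alone gives about 1 in 20. Both were mouse 1 of the 0.2U Col group titled RPC. Its Pecam1 was 223.5 CPM against 154.3 to 165.6 CPM in the other mice, a gap of 0.836 of the range, and its Kdr was 204.4 CPM against 77.7 to 98.7 CPM, a gap of 0.834 of the range. Neither gene was called in that group with or without this mouse. Mouse 4 of 10U Col 2d stayed under the limit, at 0.811 for Apln and 0.788 for Angpt2.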

How the results depend on the processing

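Counts here are of the 10 genes called by edgeR, each beside its value in the text above, and the cause of a change was not tested. At 10U Col 2d (1 gene) DESeq2 called 6, library totals in place of TMM 0, the fit shared by all 31 libraries 5, that fit with the salivary gland covariate 5, pooled vehicles 7 and the replicate block 5, and with 1 mouse left out the count ran from 0 to 7. At 6d (4 genes) pooled vehicles gave 6, DESeq2 and the shared fit with the covariate 5 each, library totals 1, the replicate block 2, the study's criteria 2, and leaving out 1 mouse 1 to 5. At 12d (0 genes) DESeq2 gave 2, the shared fit 1 with or without the covariate, pooled vehicles 1, and leaving out 1 mouse 0 to 1. From 2d to 6d (0 genes) DESeq2 gave 4, the shared fit 3 with or without the covariate, the replicate block 5, and leaving out 1 mouse 0 to 6. From 6d to 12d (2 genes) DESeq2 gave 6, the shared fit 4 with or without the covariate, the replicate block 5, the study's criteria 0, and leaving out 1 mouse 0 to 5. Between CFA 1d and 5d (0 genes) library totals gave 5, and leaving out 1 mouse gave 0 to 1 for CFA 5d against vehicle. For the early interaction (0 genes) the replicate block gave 1 and leaving out 1 mouse 0 to 1, and for the later one (0 genes) library totals gave 2 and leaving out 1 mouse 0 to 1. In the block fits mouse 4 of a group of 4 is alone in its block, which has the effect of leaving it out. This holds for mouse 4 of 10U Col 2d and of 10U Col 12d. From 6d to 12d the block fit called the same 5 genes as the fit without mouse 4 of 12d. In 2 cases the direction turned, both under library totals: Vegfa at CFA 5d against vehicle went from 0.36 to -0.016 and Kdr from CFA 1d to 5d from 0.47 to -0.019 on the log2 scale, neither called. No ratio turned with a pseudocount of 5.

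Numbered mice deviated together in every pair in 2 of 11 comparisons only, and the block there changed no call among the 10 genes (all genes went from 0 to 1 and from 6 to 0). In 0 of the 11 did every sample correlate best with its own number. Over all genes, called counts ranged with the fit from 127 to 5043 at 2d (319 as reported), 1473 to 5875 at 6d (3900), 43 to 902 at 12d (174), 0 to 892 at CFA 5d (155), 11 to 3860 from CFA 1d to 5d (820), 409 to 2707 from 2d to 6d (1267), 2812 to 7056 from 6d to 12d (3785), 0 to 65 between the vehicles (6), 13 to 162 and 47 to 5999 for the early and later interactions (14 and 1684), and 0 to 56, 519 and 443 at CFA 1d, 1C and RPC (0 in each). With 1 mouse left out they ranged from 12 to 5143 at 2d, 809 to 5835 at 6d, 41 to 600 at 12d, 0 to 2162 at CFA 5d, 218 to 1340 from CFA 1d to 5d, 126 to 4105 from 2d to 6d, 234 to 7687 from 6d to 12d, 0 to 12 between the vehicles, 4 to 104 and 563 to 2658 for the interactions, and 0 to 19, 202 and 1 at CFA 1d, 1C and RPC, so the shares of all genes called depend on single mice. With 3 or 4 mice per group, a gene not called is not shown to be unchanged.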
